A study of Mus musculus with 36 samples.

Results

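The 10 genes described here encode proteins that tie the heart muscle cell to the matrix around it: 6 integrin subunits (Itgb1, Itga5, Itga6, Itga7, Itgav and Itgb5), 3 proteins of the plaque under the membrane (Ilk, Tln1 and Vcl) and Itgb1bp2, which encodes melusin. They were named as a list, and each was read from the brightest of its probe sets by mean over the 36 arrays of the series. All 10 stood among the 12626 genes that passed the filter on dim probe sets, out of 18193 genes with a probe set of 1 symbol. The filter kept the upper 60% of probe sets by mean log2 value (a signal of about 414.3), and 22 of the members' 29 probe sets passed it.

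Affymetrix whole-genome mouse arrays measured left ventricle RNA of mice on a C57black background. The transgenic mice carried αMHC-Mer-Cre-Mer, a Cre recombinase that tamoxifen switches on, together with 1 of 3 floxed transgenes, HRas-v12, MKK3bE or MKK7D. Both parts were driven by the cardiac muscle promoter αMHC. HRas-v12 is a constantly active Ras, MKK3bE an active kinase upstream of p38 and MKK7D an active kinase upstream of JNK. Controls were littermates without a transgene, and every mouse, controls included, received tamoxifen by intraperitoneal injection at 20 mg/kg on 3 days from 12 weeks of age, so no group shows the effect of Mer-Cre-Mer alone.

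Hearts were taken early, 4 to 7 days after the first injection, or late, 2 to 4 weeks after it. The HRas-v12 line had 2 female and 3 male early arrays and 3 late arrays of each sex. For MKK3bE, the 2 early arrays were both female, and 2 females and 3 males were measured late. Both lines were set against the same 3 female and 3 male control arrays, whose titles give no time, so their comparisons share controls. The MKK7D line had 3 female arrays and 3 female controls of its own at each time. Nothing in the labels says that replicates are separate animals, so a p-value speaks only of the spread from array to array, which may be technical.

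Integrins are pairs of an alpha and a beta subunit that bind matrix proteins outside the cell and the actin cytoskeleton inside it. In heart muscle they sit at costameres, bands of protein that couple the Z discs of the outer myofibrils to the membrane. Talin binds the beta tail and brings the integrin to its active state, vinculin strengthens the talin to actin link, and integrin-linked kinase, which works mainly as a scaffold, joins the same tail to actin through its partners. Melusin binds the beta tail encoded by Itgb1 and is made mainly in heart and skeletal muscle.

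Promoter sequence was at hand for 7 of the 10 members (RefSeq, build GRCm38.p6, 250 bases before to 50 bases after the annotated start); Itga6, Itga7 and Itgb1bp2 were not in the table used. Short motifs were searched on both strands because most members moved together in early HRas-v12 hearts. The CArG box, to which serum response factor binds, was found in 1 member, Vcl, and in 1.63% of the 32851 windows of the table. The Sp1 motif GGGCGG was found in 6 of the 7 members and in 35.7% of all windows, the motif TGACTCA of AP-1 in none of the 7 and in 5.2% of all windows, the MCAT motif CATTCC in Itgb1 and Vcl and in 14.7% of all windows, and the Ets motif CCGGAAG in Ilk and in 8.86% of all windows. These members were counted by gene over 8 windows, whereas the shares of the table are by window. Of the 8 windows, 6 held the Sp1 motif, 2 the MCAT motif, 2 the Ets motif and 1 the CArG box. Shares of all genes are not given here. A match is a description of the letters in the window. The stretches below end before the start and belong to 4 members called higher in early HRas-v12 hearts. Capitals mark the CArG box in Vcl and GGGCGG or its complement in the others.
Vcl, chr14:20929148-20929230, plus strand: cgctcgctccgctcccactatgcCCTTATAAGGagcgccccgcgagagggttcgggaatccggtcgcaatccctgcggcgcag
Ilk, chr7:105736586-105736691, plus strand: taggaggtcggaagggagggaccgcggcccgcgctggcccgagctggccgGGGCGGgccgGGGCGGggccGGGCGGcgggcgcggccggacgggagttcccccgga
Itgb1, chr8:128685453-128685558, plus strand: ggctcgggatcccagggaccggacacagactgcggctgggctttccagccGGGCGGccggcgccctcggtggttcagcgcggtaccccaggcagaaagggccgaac
Itga5, chr15:103366885-103366990, minus strand: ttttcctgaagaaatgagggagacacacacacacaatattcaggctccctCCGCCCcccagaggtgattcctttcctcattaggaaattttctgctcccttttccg

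The array titles were checked first, because 6 arrays stood against theirs. Esr1, which Mer-Cre-Mer RNA can feed since Mer is a piece of the estrogen receptor, exceeded every shared control array in 21 of the 24 transgenic arrays. It did not in 3 HRas-v12 arrays, those labelled female early replicate 3 (688), male late replicate 1 (2915) and male late replicate 3 (1327), and it was high in the arrays labelled MKK7D control female late replicate 8 (106402) and replicate 9 (91291). The limit was set by control female replicate 2 (7943), while the other shared controls read 294 to 832. HRas-v12 male late replicates 1 and 3 thus read above those other controls. Because the shared controls set the limit, Esr1 could flag none of them. Under a limit from those other controls alone, these late males would not stand against their titles. MKK7D control female early replicate 2 (3506) and late replicate 10 (953) then would. The sex-linked genes matched the title in 35 of 36 arrays, and the exception was titled MKK7D control female early replicate 1. Map2k3, the gene of MKK3, changed by 0.14 early and 0.10 late on the log2 scale in the MKK3bE line (SE 0.19 and 0.13, limma adjusted p = 0.703 and 0.687), through a probe set that may lie outside the transgene. Transgene RNA of HRas-v12 and MKK7D was not analysed here. The arrays had been scaled to the same trimmed mean signal, 2500, and their small number limits the precision.

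Early HRas-v12 hearts held more RNA of most of this machinery and less of melusin. Of the 10 members, 7 rose and 1 fell against control, where 33.8% of all genes tested were called (15.1% higher and 18.7% lower). The risers were Itgb1, Itga5, Itga7, Itgav, Ilk, Tln1 and Vcl, by 1.59-fold to 2.62-fold, and Itgb1bp2 was 1.78-fold lower. Itga6 and Itgb5 were not called. The median log2 change of the members was 0.83 and that of all genes tested was -0.04. A gene is called here when its limma adjusted p, by Benjamini-Hochberg over all 12626 genes, is under 0.05, and a change averages the difference in log2(signal + 32) of females and that of males. In ventricle RNA, a change in the share of a cell type and a change of RNA per cell cannot be told apart.

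**Figure D1:**
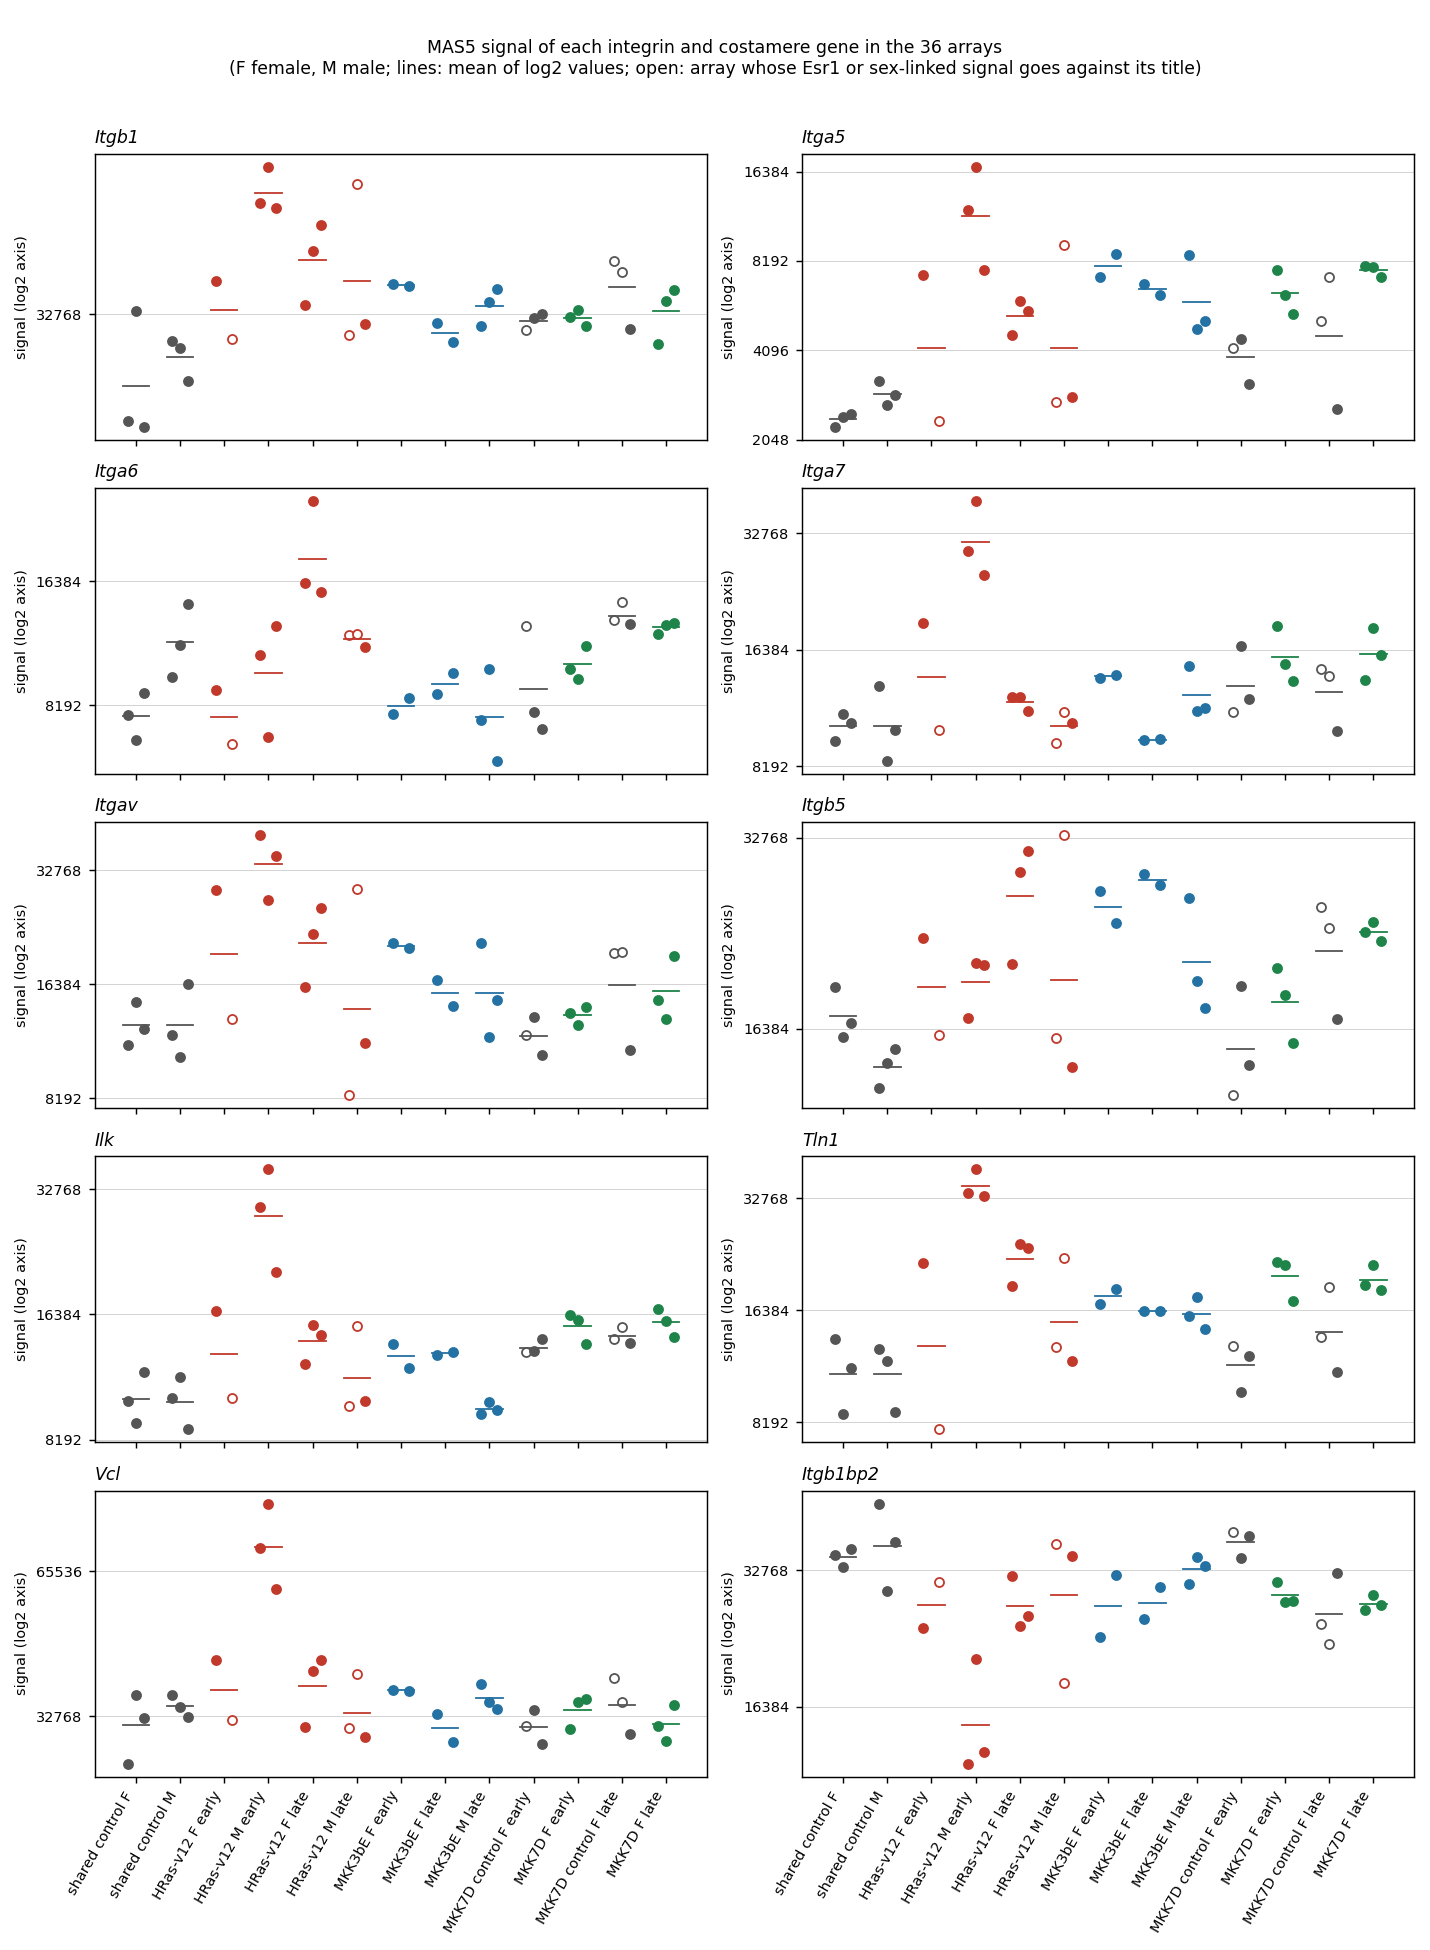
Probe set signal of the 10 members on a log2 axis in each of the 13 groups. Dots are arrays, lines are the means of the log2 values, and open dots mark the 6 arrays whose Esr1 or sex-linked signal goes against the title. Itga5 reads 2257 to 3219 in the 6 shared controls and 7629 to 16957 in early HRas-v12 males, and Itgb1bp2 29451 to 46043 and 12293 to 20854.

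Itgb1 encodes the beta subunit that most heart muscle integrins share. Its signal was 20260, 20813 and 33188 in control females and 24622, 28345 and 29214 in control males. In early HRas-v12 hearts it was 37688 and 29546 (the array labelled replicate 3) in females and 51484, 52606 and 61355 in males. The array labelled female replicate 3 lay within the control range, and the other 4 lay above it. Itgb1 rose 1.67-fold (log2 change 0.74, SE 0.14, limma adjusted p = 0.000408).

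Itga5 encodes the alpha subunit of the main fibronectin receptor, which is scarce in resting adult heart muscle. Control signals were 2257, 2443 and 2494 in females and 2677, 2901 and 3219 in males. Early HRas-v12 arrays read 7371 and 2368 (labelled replicate 3) in females and 7629, 12172 and 16957 in males. The rise was 2.62-fold (log2 change 1.39, SE 0.29, adjusted p = 0.000767), the largest among the 10. The array labelled female replicate 3 was the only early one inside the control range.

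Itga7 encodes the laminin-binding alpha subunit that is typical of striated muscle. Controls read 9545, 10598 and 11155 in females and 8451, 10178 and 13185 in males, and early HRas-v12 arrays 19197 and 10164 (labelled replicate 3) in females and 25558, 29475 and 39637 in males. Itga7 rose 2.00-fold (log2 change 1.00, SE 0.15, adjusted p = 5.4e-05). Itga6 encodes another laminin-binding alpha subunit. It read 6739 to 14403 in controls (median 9185) and 6604, 6833, 8932, 10838 and 12732 in the 5 early arrays, so the groups overlapped throughout. Its log2 change was -0.13 (SE 0.17, adjusted p = 0.59), with a 95% interval from -0.47 to 0.21.

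Itgav and Itgb5 can pair to form a receptor for vitronectin. Itgav controls read 11343, 12495 and 14727 in females and 10550, 12060 and 16389 in males, and early HRas-v12 arrays 29157 and 13291 (labelled replicate 3) in females and 27335, 35775 and 40589 in males. Itgav rose 2.03-fold (log2 change 1.02, SE 0.24, adjusted p = 0.00227). Its partner Itgb5 read 13195 to 19076 in controls (median 15545) and 15992, 17040, 20679, 20788 and 22804 in the early arrays, a log2 change of 0.30 (SE 0.17, adjusted p = 0.183). The groups overlapped for both genes, for Itgav through the array labelled female replicate 3 alone. Leaving out female early replicate 1 ended the call of Itgav (log2 change 0.74, adjusted p = 0.0635).

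Among the plaque proteins, Ilk encodes integrin-linked kinase. It read 8992, 10143 and 11924 in control females and 8667, 10304 and 11569 in control males, and 16736 and 10335 (labelled replicate 3) in early HRas-v12 females against 20692, 29697 and 36553 in males. Ilk rose 1.89-fold (log2 change 0.92, SE 0.13, adjusted p = 3.78e-05). Tln1, which encodes the talin that is widely expressed, read 8624, 11440 and 13742 in control females and 8729, 11965 and 12898 in control males. Its early HRas-v12 signals were 21957 and 7842 (labelled replicate 3) in females and 33294, 33777 and 39207 in males. Tln1 rose 1.95-fold (log2 change 0.96, SE 0.20, adjusted p = 0.000666; 0.59, adjusted p = 0.0317, without female early replicate 1). The array labelled replicate 3 was below every control for Tln1 and inside the control range for Ilk.

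Vcl encodes vinculin. Controls read 26121, 32553 and 36287 in females and 32596, 34310 and 36309 in males, and early HRas-v12 arrays 42828 and 32171 (labelled replicate 3) in females and 60242, 73393 and 90716 in males. Vcl rose 1.59-fold (log2 change 0.67, SE 0.12, adjusted p = 0.000154). Itgb1bp2 went the other way. It read 33359, 35398 and 36630 in control females and 29451, 37899 and 46043 in control males, and 24414 and 30960 (labelled replicate 3) in early females against 12293, 13008 and 20854 in early males. Melusin RNA fell, by 0.83 on the log2 scale (SE 0.16, adjusted p = 0.000349), or 1.78-fold. For both genes the array labelled female replicate 3 lay inside the control range and the other 4 early arrays outside it.

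None of the 10 members separated all 5 early HRas-v12 arrays from all 6 controls, where 4.27% of genes tested did. Without the arrays in doubt, 7 members lay above and 1 below every control (28.8% of genes), and 8 rose and 1 fell (42.3% of genes called). Of the 8 early calls, all but that of Itgav held with each of the 11 arrays left out in turn.

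Females and males were also fitted apart in early HRas-v12 hearts. With males alone, 8 members were called (38.1% of genes), with log2 changes of 1.98 for Itga5, 1.67 for Tln1, 1.57 for Itga7, 1.48 for Ilk, 1.41 for Itgav, 1.10 for Vcl, 1.01 for Itgb1 and -1.31 for Itgb1bp2. With females alone, no gene of the series was called by limma, and the members' log2 changes were 0.80, 0.25, 0.42, 0.35, 0.62, 0.24, 0.47 and -0.35 in the same order. These single-sex comparisons were added after the data were seen. The difference itself, male minus female, was called for 1 member, where 1.1% of genes were called (0.293% higher and 0.808% lower): Ilk, at 1.12 (SE 0.27, limma adjusted p = 0.0337). For Itga7 it was 1.15 (adjusted p = 0.0584), for Vcl 0.86 (0.0601) and for Tln1 1.43 (0.0613). The female group was 2 arrays, 1 of them the array in doubt, without which the difference for Ilk was not called (adjusted p = 0.442) and no member was. Leaving out female early replicate 1 gave 6 such members, male early replicate 3 gave 3 and control female replicate 2 gave 2, while 7 of 11 arrays left out in turn ended the call of Ilk. Shares of all genes called in those fits are not given here.

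Late HRas-v12 hearts had 4 members higher and none lower than control, Itgb1, Itga6, Itgb5 and Tln1, where 9.52% of genes were called (4.86% higher and 4.66% lower). Itga7, called higher early, was not called late, and Itga6 was. The median log2 change of the members was 0.49, and that of all genes 0.02. At an unadjusted p under 0.05 there were 7 members and 28.3% of all genes.

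Itgb1 read 34078, 42948 and 48025 in late HRas-v12 females and 30045 (labelled replicate 1), 31392 and 56974 (labelled replicate 3) in late males, and rose 1.54-fold (log2 change 0.62, SE 0.13, limma adjusted p = 0.0138). Itga6 read 15432, 16232 and 25611 in late females, all above the 6 controls, and 11351, 12145 and 12168 in late males, inside the control range. Averaged over both sexes Itga6 rose 1.56-fold (log2 change 0.65, SE 0.16, adjusted p = 0.018). With females alone Itga6 stood at 1.26 (adjusted p = 0.00406, with 7.14% of genes called) and with males alone at 0.03. The difference between the sexes was -1.24 (male minus female, SE 0.31, adjusted p = 0.261), not called.

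Tln1 read 19013, 24077 and 24770 in late females and 12001, 13094 (labelled replicate 1) and 22673 (labelled replicate 3) in late males, and rose 1.67-fold (log2 change 0.74, SE 0.18, adjusted p = 0.0193). Itgb5 read 20732, 28919 and 31284 in late females and 14245, 15838 (labelled replicate 1) and 33086 (labelled replicate 3) in late males, and rose 1.45-fold (log2 change 0.54, SE 0.16, adjusted p = 0.0349). All 3 late females lay above every control for both genes, and of the late males only the array labelled replicate 3 did. That array also read 9280 for Itga5, against 2743 and 2845 in the other late males and 4608 to 5996 in the late females. Itga5 missed the threshold (log2 change 0.83, SE 0.27, adjusted p = 0.0513).

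The remaining members were not called late. The log2 change was 0.43 for Itgav (adjusted p = 0.214), 0.32 for Ilk (0.0947), 0.11 for Vcl (0.519), 0.10 for Itga7 (0.672) and -0.36 for Itgb1bp2 (0.113). No member separated the late arrays from the controls (1.39% of genes did).

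The late counts rest on single arrays. Leaving out female late replicate 3 or the array labelled male late replicate 3 left 1 member called, Itgb1, while leaving out the array labelled male late replicate 1 gave 6 and male late replicate 4 gave 5. The call of Itgb1 held in all 12 such fits (adjusted p up to 0.0486), those of Itga6 and Tln1 ended without female late replicate 3 (0.0674 and 0.0596) or the array labelled male late replicate 3 (0.0554 and 0.0781), and that of Itgb5 ended in 8 of the 12. Leaving out the array labelled male late replicate 3 put Itgb5 at 0.35 (adjusted p = 0.144). With the 6 doubted arrays left out 1 member was called (1.24% of genes), Tln1 at 0.57 (adjusted p = 0.0424), with Itgb1 at 0.49 (0.0587), Itga6 at 0.61 (0.0965) and Itgb5 at 0.31 (0.262). Of the late males, leaving out the doubted arrays keeps replicate 4 alone, which had no member above every shared control. A fit on the late HRas-v12 and control arrays alone called no member. Shares of all genes called in that fit and in those with 1 array left out are not given here.

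**Figure D2:**
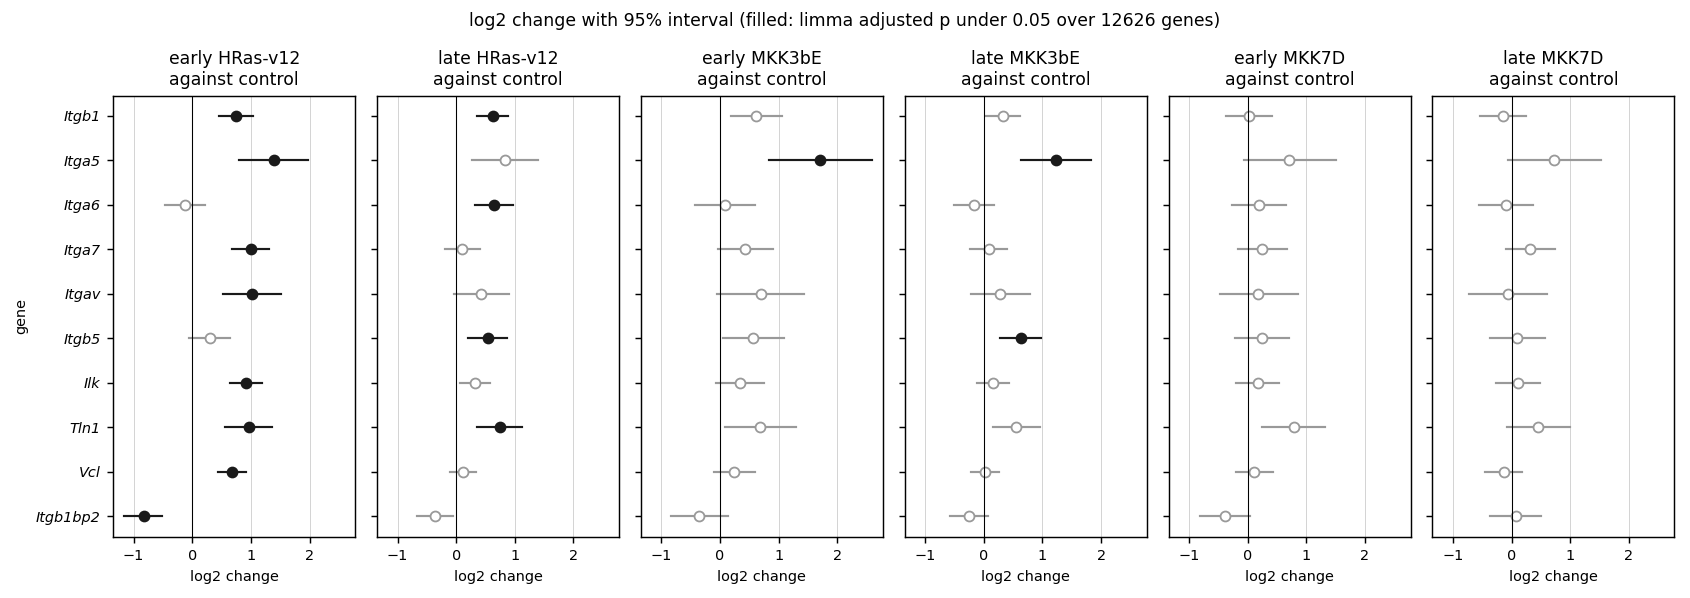
Log2 change against control with its 95% interval for the 10 members in each line and time. Filled points passed the adjusted p threshold of 0.05. Early HRas-v12 has 8 filled points, late HRas-v12 has 4, early MKK3bE has 1, late MKK3bE has 2, and MKK7D has none at either time.

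Setting late against early HRas-v12 arrays directly, 5 members differed, 2 higher and 3 lower late, where 11.6% of genes were called (6.91% higher and 4.67% lower). Itga6 was 1.71-fold higher late (log2 difference 0.77, SE 0.17, limma adjusted p = 0.00354) and Itga7 1.86-fold lower (-0.89, SE 0.15, adjusted p = 0.000638). Late arrays of Itga7 read 9422 to 12381, back among the controls at 8451 to 13185. Vcl was 1.47-fold lower late (-0.56, SE 0.12, adjusted p = 0.00286), Ilk 1.51-fold lower (-0.59, SE 0.13, adjusted p = 0.00545) and Itgb1bp2 1.39-fold higher (0.47, SE 0.16, adjusted p = 0.0487). The second Vcl probe set stood at 1.39 early and 1.10 late against control, and its late against early difference was not tested. Itgb1, Itga5, Itgav, Itgb5 and Tln1 were not called, at -0.12, -0.56, -0.59, 0.24 and -0.22. The calls of Itga6 and Itga7 held with every 1 of 11 arrays left out. Those of Ilk (0.112) and Vcl (0.0537) ended without female early replicate 1, which left 2 members called, and that of Itgb1bp2 ended in 8 of 11 fits. There were 8 members without the array labelled female early replicate 3, and 8 without all arrays in doubt. A fit on these arrays alone called no member. Shares of all genes called in these further fits are not given here.

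MKK3bE hearts shared the rise of the fibronectin receptor subunit. Itga5 was the 1 member called early, where 6.26% of genes were called (3.48% higher and 2.78% lower), and Itga5 and Itgb5 were the 2 called late, where 10.4% were (5.06% higher and 5.39% lower). At an unadjusted p under 0.05 there were 4 members at each time, with 23.4% of all genes early and 26.4% late. The median log2 change of the members was 0.50 early and 0.22 late, and that of all genes -0.02 and -0.01.

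Itga5 read 7206 and 8654 in early MKK3bE females, against 2257 to 2494 in control females. Itga5 rose 3.27-fold early (log2 change 1.71, SE 0.43, limma adjusted p = 0.0173). Late arrays read 6300 and 6857 in females and 4833, 5144 and 8584 in males, 2.35-fold above control (log2 change 1.23, SE 0.29, adjusted p = 0.00737). No MKK3bE array overlapped its controls for Itga5 at either time.

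Itgb5 read 24047 and 27018 early and 27579 and 28709 in late females and 17654, 19478 and 26378 in late males. The late rise was 1.55-fold (log2 change 0.63, SE 0.17, adjusted p = 0.0185), with 1 late male inside the control range. The early log2 change was 0.57 (SE 0.25, adjusted p = 0.175). Tln1 read 17084 and 18665 early, 16306 and 16364 in late females and 14612, 15852 and 17839 in late males. Each of these arrays exceeded every control, yet Tln1 was called at neither time (0.69, adjusted p = 0.153, and 0.55, adjusted p = 0.0707).

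The other 7 members were not called in MKK3bE hearts. Early and late log2 changes were 0.62 and 0.32 for Itgb1, 0.70 and 0.28 for Itgav, 0.43 and 0.08 for Itga7, and 0.08 and -0.17 for Itga6. They were 0.34 and 0.15 for Ilk, 0.24 and 0.02 for Vcl, and -0.36 and -0.26 for Itgb1bp2. With only 2 early arrays against 3, 9 of 10 members did not overlap with control early, all but Itga6, and 42.5% of genes did not either. Late, Itga5 and Tln1 did not overlap (10.1% of genes). No member was called between late and early MKK3bE females, set against each other directly (0.00792% of genes were), and 1 member and 6.07% of genes had an unadjusted p under 0.05.

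The early call of Itga5 ended without control female replicate 1 (adjusted p = 0.0514), MKK3bE female early replicate 1 (0.0844) or replicate 2 (0.146), and leaving out control female replicate 2 gave 2 members. Late, no left-out array ended the call of Itga5. That of Itgb5 ended without MKK3bE male late replicate 2 (0.061), female late replicate 2 (0.0764) or replicate 3 (0.064), and leaving out control female replicate 2 gave 3 members. Shares of all genes called in these fits with 1 array left out are not given here. Without the 6 arrays in doubt, none of which is an MKK3bE array or a shared control, the standard errors were smaller (0.25 in place of 0.43 for early Itga5, at the same log2 change) and 5 members were called early (16.4% of genes) and 4 late (20.4%). Itgb1 and Tln1 were then called at both times. The second Tln1 probe set did not follow the brightest in the fit with all arrays, as given below.

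In MKK7D hearts no member was called by limma. Early, 0.135% of genes were called (0.0871% higher and 0.0475% lower) and 1 member and 10.7% of genes had an unadjusted p under 0.05. Late, 0% were called, with no member but 643 genes (5.09%) at an unadjusted p under 0.05. The median log2 change of the members was 0.19 early and 0.09 late, and that of all genes 0 and 0.02.

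By their brightest probe sets, the members farthest from control were Tln1 and Itga5. Other Tln1 probe sets are given below. Tln1 read 9865, 12341 and 13127 (labelled replicate 1) in early MKK7D controls and 17311, 21652 and 22070 in early MKK7D hearts, a log2 change of 0.79 (SE 0.26, adjusted p = 0.218). Late controls read 11168, 13892 (labelled replicate 8) and 18945 (labelled replicate 9), and late MKK7D hearts 18545, 19187 and 21717, a log2 change of 0.46 (SE 0.26, adjusted p = 0.999). Itga5 changed by 0.71 early and 0.73 late (adjusted p = 0.518 and 0.999).

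Itga5 and Tln1 lay above, and Itgb1bp2 below, every early MKK7D control (3 of 10 members, 23.4% of genes), and no member did so late (12.5% of genes). Other early values ran from 0.02 for Itgb1 to 0.25 for Itga7, apart from Itgb1bp2 at -0.39. The remaining late values ran from -0.15 for Itgb1 to 0.32 for Itga7. The arrays in doubt are 3 of the 6 MKK7D controls. Without them Tln1 was called early at 0.87 (adjusted p = 0.0206, 0.974% of genes called). Late, with 1 control array left, whose spread is taken from the other groups, Itga5 at 1.55 (adjusted p = 0.00819) and Tln1 at 0.82 (adjusted p = 0.0462) were called (3.39% of genes).

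Comparisons within the line and among controls gave few calls. The change of MKK7D hearts against their own controls differed between late and early for no member (0.0158% of genes, and no member at an unadjusted p under 0.05). None differed between late and early MKK7D controls (0.0792% of genes, 0.0554% higher and 0.0238% lower, with 3 members and 14.7% of genes at an unadjusted p under 0.05) or between early MKK7D controls and the shared control females (1.47% of genes, 0.507% higher and 0.958% lower, with 2 members and 16.7% of genes at that p). Between control males and control females 0% of genes were called, with 1 member and 1148 genes (9.09%) at an unadjusted p under 0.05. The sex difference was called for no member in late HRas-v12 (0% of genes, 1 member and 988 genes, or 7.83%, at an unadjusted p under 0.05) or late MKK3bE (0.00792% of genes, 1 member and 4.65% of genes at that p).

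The 2 lines with shared controls were also set against each other. Early, with females only, no member differed between HRas-v12 and MKK3bE (1.81% of genes called, 0.451% higher and 1.35% lower, and no member at an unadjusted p under 0.05), and leaving out HRas-v12 female early replicate 1 gave 1. Late, 1 member did, where 3.95% of genes were called (1.92% higher and 2.04% lower). Itga6 was higher in HRas-v12 than in MKK3bE hearts (log2 difference 0.82, SE 0.17, limma adjusted p = 0.00378), whose late arrays read 5985 to 10036. The call held with every 1 array left out. Shares of all genes called in those fits are not given here.

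Counted array by array, the members showed how uneven the groups are. Early HRas-v12 males had 7 or 8 members above every shared control and 1 below, with 58% to 61.4% of all genes outside the control range. Female early replicate 1 had 8 above and 1 below (49.4% of genes outside), whereas the array labelled female early replicate 3 had none above and 2 below (25.7%). Late females had 6 to 8 above (20.3% to 24.3% of genes above). Among late males the array labelled replicate 3 had 7 above (29.8% of genes above), and the other 2 had none (9.75% and 14.8%). Early MKK3bE arrays had 8 above each (19.7% and 20.7% of genes above), late ones 3 to 6 (14.5% to 21%), and MKK7D arrays none to 4 above the 6 MKK7D controls (10.4% to 15.2% of genes above). These counts describe arrays and form no groups.

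**Figure D3:**
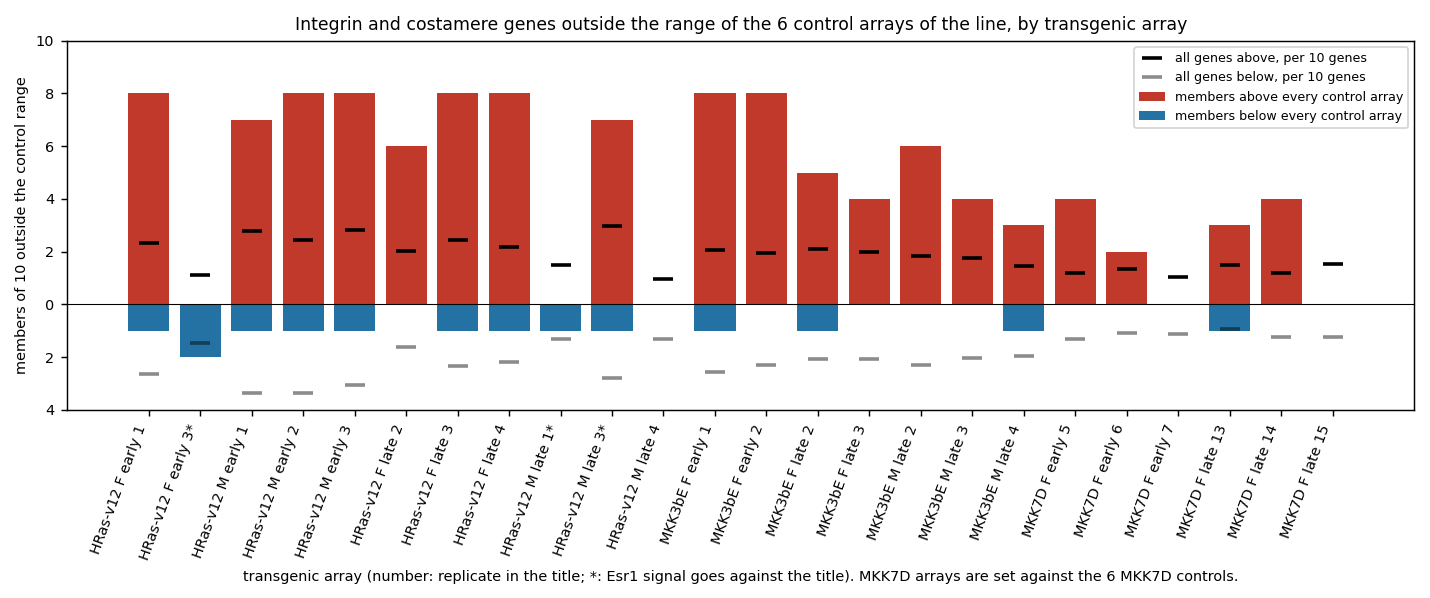
Members above (red) or below (blue) every control array of the line, for each transgenic array, out of 10. Dashes give the share of all genes tested above or below, per 10 genes, and asterisks mark arrays whose Esr1 goes against the title. MKK7D arrays are set against the 6 MKK7D controls. The early HRas-v12 male bars reach 7 or 8, and the female early array labelled replicate 3 has none above.

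Further probe sets of a member did not always follow the brightest one; adjusted p-values here are over the 27022 probe sets that passed. All 3 probe sets of Itgb1 were called in early and late HRas-v12 hearts, and the other 2 also in early MKK3bE (0.85 and 1.10, adjusted p = 0.036 and 0.0393). The second Itga5 probe set stood at 2.09 and 1.40 in early and late HRas-v12 and at 2.38 and 1.79 in MKK3bE, called in all 4, including late HRas-v12, where Itga5 was not called in the fit over genes. All 4 probe sets of Itgb5 were called in late HRas-v12 and in late MKK3bE, and 1 of them also in early HRas-v12 at 0.73 (adjusted p = 0.0177).

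The probe sets of Vcl, Itgav, Itga6 and Tln1 also differed in their call in late HRas-v12 hearts. The second Vcl probe set stood at 1.39 early and 1.10 late (adjusted p = 0.00889) while the brightest was at 0.11 late. For Itgav, the probe set with the largest change stood at 1.88 and 1.73 (adjusted p = 0.0122) against 0.43 late for the brightest. Late Itga6 was called through the brightest and not through its other probe set (0.29, adjusted p = 0.18). Tln1 was called late through the brightest probe set alone, with the others at 1.13 and 0.43 early and 0.16 and 0.20 late. In MKK3bE hearts those others stood at -0.04 and 0.15 early and -0.16 and 0.49 late, beside 0.69 and 0.55 for the brightest. In MKK7D hearts they stood at 0.42 and 1.33 early (limma adjusted p = 0.709 and 0.0657), beside 0.79 for the brightest. Late MKK7D values were 0.12 and 0.35, beside 0.46. Ilk, Itga7 and Itgb1bp2 have 1 probe set each.

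**Figure D4:**
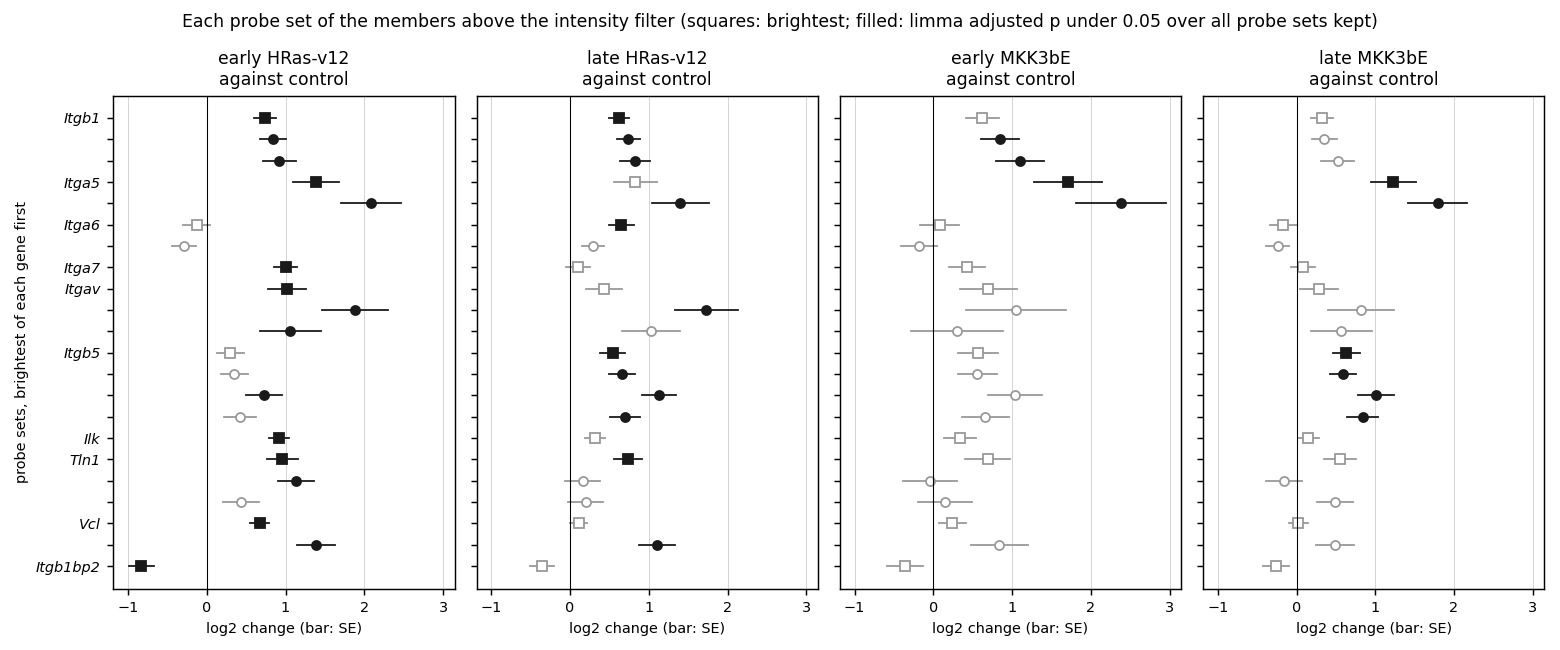
Log2 change of the 22 probe sets of the members that passed the filter, in early and late HRas-v12 and early and late MKK3bE hearts. Squares are the brightest probe set of a gene, bars are the standard error, and filled symbols have an adjusted p under 0.05 over all 27022 probe sets. The second Vcl and Itgav probe sets lie at 1.10 and 1.73 in late HRas-v12, where the brightest lie at 0.11 and 0.43.

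Over the 13 groups, early HRas-v12 males had the highest mean signal of 7 members. These means were 55148 for Itgb1, 12253 for Itga5, 31556 for Itga7, 34566 for Itgav, 28981 for Ilk, 35426 for Tln1 and 74784 for Vcl. Itga6 was highest in late HRas-v12 females (19092) and lowest in late MKK3bE males (7848), and Itgb5 was highest in late MKK3bE females (28144) and lowest in control males (14289). Itgb1bp2 was highest in early MKK7D controls (37951) and lowest in early HRas-v12 males (15385). Ranked by mean, most neighbouring groups did not differ beyond their spread: only 1 to 3 of 12 steps per member exceeded the larger SD of the pair. Itga5 had the widest range, 2.26 on the log2 scale, and Itgb5 the narrowest, 0.98.

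By Pearson r over the 13 group means of log2(signal + 32), the closest genes of each member were as follows, as a description of groups that share controls and 1 scanner scale. Tln1 was nearest to Kdelr3 (0.966), which was also among the nearest 3 of Itga5 (0.951), itself nearest to Slc7a6 (0.973). Itgav was nearest to Cyb5r1 (0.971) and Timp1 (0.97), Itgb5 to Nbl1 (0.97) and Mxra8 (0.964), and Itgb1 to Rnf4 (0.975). Itga7 was nearest to Hprt (0.948), Ilk to Mgat2 (0.974), Vcl to Dera (0.968) and Itgb1bp2 to Nsun4 (0.983), Mto1 (0.978) and Tmem38a (0.977). Itga6 had no gene above 0.889 (Ebpl). Among members, the closest pair was Itga5 with Tln1 (0.89), and Itgav with Itgb1bp2 gave -0.90.

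Other genes of the adhesion system, from 4 lists, were also counted in early HRas-v12 hearts, where 33.8% of all genes tested were called (15.1% higher and 18.7% lower). Of 16 other integrin subunits tested, 3 rose and 1 fell (median log2 change 0.24). The collagen receptor subunit Itga1 was 2.59-fold higher, the leukocyte integrin subunits Itgam and Itgb2 3.03-fold and 2.12-fold higher, and Itgb6 3.26-fold lower. Of 26 adaptors and kinases, 9 rose and 1 fell (median 0.24), among them the actin cross-linker Actn1 (3.93-fold), Fermt3, the kindlin of blood cells (2.50-fold), filamin A (Flna, 1.79-fold) and Rsu1, a partner of the Ilk complex (1.61-fold).

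Of 22 genes of the dystrophin complex and costamere cytoskeleton, 7 rose and 5 fell early (median 0.02), beside the same shares of all genes. Cav3, the muscle caveolin, was 2.58-fold higher, whereas alpha-sarcoglycan (Sgca) and sarcospan (Sspn) of the dystrophin complex were 1.99-fold and 1.96-fold lower and the spectrin gene Sptbn1 1.34-fold lower. Of 19 matrix ligands of integrins, 12 rose and 1 fell (median 0.50). Tenascin-C (Tnc) was 32.4-fold, thrombospondin 1 (Thbs1) 6.74-fold and the basement membrane collagen Col4a1 2.10-fold higher, and vitronectin (Vtn) was 2.24-fold lower. Of these 39 calls over the 4 lists, 13 held with every array left out in turn, and 26 ended without female early replicate 1, Itgam (0.0617), Itgb2 (0.142), Itgb6 (0.0773), Flna (0.0603) and Fermt3 (0.149) among them. Without the arrays in doubt 38 of the 39 held.

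In late HRas-v12 hearts most of the calls in these lists were ligands. Of all genes 4.86% were called higher. No other integrin subunit was called (median log2 change 0.48), 3 of 26 adaptors rose (Rsu1 1.39-fold, Flna 1.60-fold and Tgfb1i1 1.58-fold), 1 of 22 costamere genes rose (Krt18, a keratin, 3.11-fold), and 10 of 19 ligands rose. The 4 ligands with the smallest adjusted p were Thbs1 (5.08-fold), Lamb2 (1.34-fold), Col6a1 (1.99-fold) and Postn (3.71-fold). Of these 14 calls, 2 held with every array left out (Thbs1 and Lamb2), and 12 ended without female late replicate 3 and also without the array labelled male late replicate 3. Leaving out control male replicate 1 or control female replicate 1 ended 10. Without the arrays in doubt 4 held.

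In MKK3bE hearts 10 genes of the 4 lists rose early and 7 late, and none fell, where 3.48% and 5.06% of all genes were called higher. Krt18 was 16.2-fold and 7.66-fold higher, desmin (Des), the muscle intermediate filament, 1.60-fold and 1.30-fold, and filamin C (Flnc) 2.09-fold and 1.67-fold. Sgcb (1.52-fold) and Itga9 (2.12-fold) were called early and Synm (1.74-fold) late. Among ligands, Thbs1 was 10.1-fold and 4.15-fold and Postn 9.79-fold and 4.06-fold higher, Col4a1 (2.41-fold) and Col3a1 (3.52-fold) were called early and Fbln5 (1.70-fold) late. Krt18 was the 1 call at each time that held with every array left out. Early, 9 ended without MKK3bE female early replicate 1 and 8 without replicate 2. Late, 5 ended without female late replicate 2 and 4 without replicate 3. With all arrays, no gene of the lists was called in MKK7D hearts, where 17 genes of the series were called early and 0 late. Without the arrays in doubt 1 other integrin subunit, 1 adaptor and 1 ligand were called higher early (0.974% of all genes called). Late, that fit keeps 1 MKK7D control array, so its counts are not given here.

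Markers of other cell types moved in the same comparisons. Of all genes, 15.1% were called higher and 18.7% lower in early HRas-v12 hearts. In early HRas-v12 hearts all 11 cardiomyocyte markers fell, and their summed signal was 1053459 to 1509666 in females and 1077279 to 1255530 in males, against 1772064 to 2108207 and 1602486 to 1783224 in controls. Of 11 macrophage markers 8 rose, with a summed signal of 61951 to 154587 in females and 196822 to 240502 in males against 66251 to 92749 and 74884 to 97522 in controls. Of 10 endothelial markers 8 fell, of 11 fibroblast markers 5 rose and 2 fell, and of 10 smooth muscle and pericyte markers 3 rose and 4 fell. Without female early replicate 1 1 macrophage, 1 fibroblast and 1 smooth muscle and pericyte marker were called higher, and 4 endothelial, 2 smooth muscle and pericyte and 9 cardiomyocyte markers lower. Leaving out control male replicate 1, control female replicate 1 or male early replicate 3 gave 5 macrophage markers, and leaving out male early replicate 1 gave 1 smooth muscle and pericyte marker higher. Itgb1bp2, like the cardiomyocyte markers, was lower in these hearts, whereas Itga7, typical of striated muscle, was higher. The part of these shifts in the members' changes was not tested. Shares of all genes called in the fits with 1 array left out are not given here.

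In late HRas-v12 hearts 8 of 11 cardiomyocyte markers fell, where 4.86% of all genes were called higher and 4.66% lower. None did without female late replicate 3 or the array labelled male late replicate 3, 2 did without control male replicate 1 and 3 without control female replicate 4. The summed signal was 1221030 to 1483742 in females and 1157196 to 1631406 in males. The macrophage sum was 112180 to 160405 in late females and 54535 to 303476 in late males. Of the macrophage markers 2 rose and 1 fell, 3 of 10 endothelial markers fell, and 3 of 11 fibroblast markers rose. No fibroblast or macrophage marker rose without control male replicate 1 or 2, control female replicate 1, female late replicate 3 or 4 or the array labelled male late replicate 3, while 6 fibroblast and 7 macrophage markers did without male late replicate 4. Leaving out the array labelled male late replicate 1 gave 6 fibroblast markers, and leaving out control male replicate 5 or control female replicate 2 gave 1. Leaving out control female replicate 2 gave no macrophage marker higher, and leaving out control male replicate 5 or control female replicate 4 gave 1. No endothelial marker fell without the array labelled male late replicate 3, and 1 did without female late replicate 3, control male replicate 5 or control female replicate 1. Without the arrays in doubt 1 fibroblast marker rose, and no cardiomyocyte, endothelial or macrophage marker was called (1.24% of all genes were). In MKK3bE hearts 4 of 11 fibroblast markers rose early and 5 late. Of all genes, 3.48% were called higher and 2.78% lower early, and 5.06% and 5.39% late. The summed fibroblast signal was 522428 to 587044 early and 516433 to 548532 in late females, against 327420 to 415128 in control females. With all arrays in the fit, no cardiomyocyte or macrophage marker was called in MKK3bE hearts at either time. None of the fibroblast markers rose early without control female replicate 1 or either MKK3bE array, and late 2 rose without MKK3bE female late replicate 2 and 3 without female late replicate 3 or male late replicate 2. A fit that omitted the 6 doubted arrays called 16.4% of all genes in MKK3bE hearts early and 20.4% late. It called 3 cardiomyocyte markers lower early and 3 late. It also called 6 fibroblast markers higher and 1 lower early, and 9 higher late. Of the macrophage markers, that fit called 1 lower early and 6 higher late. All 8 skeletal muscle markers were below the filter on dim probe sets in these ventricles. The part of these shifts in the late members' changes was not tested. Here too, shares of all genes called with 1 array left out are not given.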

How the data were processed

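The deposited values are probe set intensities on a linear scale, made by the authors with MAS5 per the submitters' processing notes (its version is not named there), with 1 array per RNA sample and every array at a trimmed mean of 2500 after leaving off 2% at each end. Array medians ran from 593.5 to 798.6. Of 45101 probe sets, 34945 had 1 gene symbol, 932 several and 9211 none in the annotation used, and 64 control probe sets stayed out. Signals were taken as log2(signal + 32), and folds on this scale understate changes of dim genes. The upper 60% by mean log2 value were kept, and the brightest probe set stood for a gene. Groups came from the array titles. A model with 13 group means over 36 arrays was fitted in limma 3.58.1 under R 4.3.3 (eBayes with an intensity trend, 23 residual and 4.61 prior degrees of freedom), so groups of 2 or 3 arrays share 1 estimate of the spread. It was checked on simulated data. All adjusted p-values are Benjamini-Hochberg values from limma over all genes tested.

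Named genes are the 10 members, up to 4 called genes with the smallest adjusted p of each of the 4 pathway lists per comparison against control, the 3 genes nearest to each member in Pearson r, and Map2k3 and Esr1. Members and lists were chosen with earlier results of these data known. Alternatives were other pseudocounts, no filter, quantile normalization, the mean of all probe sets, fits on only the groups compared, the replicate number as a block, and each array or the 6 arrays in doubt left out. Comparisons within 1 sex, from the model of all arrays, were added after the data were seen. Promoter windows are RefSeq's. The array files name no genome build, so they give no coordinates here.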

Additional observations from a re-analysis of the deposited data

Results flagged for a closer look

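In the 6 shared control arrays, the Vcl signal of control female replicate 1 was 26121, apart from the others, whose nearest was 32553 and highest 36309 (gap over range 0.668, above the critical value of 0.625 for 6 arrays). It was the 1 such case in 40 checks, and chance flags about 1 in 20 groups. Leaving that array out ended no call of Vcl.

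The HRas-v12 change differed between the late and early times for 5 members by limma. The difference, late minus early on the log2 scale, was 0.77 for Itga6 (adjusted p = 0.00354), -0.89 for Itga7 (0.000638), -0.59 for Ilk (0.00545), -0.56 for Vcl (0.00286) and 0.47 for Itgb1bp2 (0.0487). For Ilk, Vcl and Itgb1bp2 it was not called without HRas-v12 female early replicate 1 (adjusted p = 0.112, 0.0537 and 0.271), and for Itgb1bp2 it was called in only 3 of 11 fits with 1 array left out. The Vcl value is that of its brightest probe set, and its second was high against control at both times.

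The late change of Itga6 was 0.82 higher in HRas-v12 than in MKK3bE hearts (limma adjusted p = 0.00378). The early HRas-v12 change of Ilk was 1.12 higher in males than in females (limma adjusted p = 0.0337), a value that rests on 2 female arrays, of which the array labelled replicate 3 has Esr1 at a control level.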

How the results depend on the processing

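No called change of a member reversed its direction under the alternatives run. In MKK7D hearts, where no member was called, leaving out the arrays in doubt turned the sign of early Itgb1 (0.02 to -0.01) and of late Itgb1 (-0.15 to 0.11), Itgav (-0.06 to 0.51), Vcl (-0.13 to 0.07) and Itgb1bp2 (0.07 to -0.22). With a smaller and a larger pseudocount, without the filter and with quantile normalization, each count of members called stayed within 1.5 times the main one in all comparisons.

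Members called changed as follows. Shares of all genes called are not given in this section, so the counts show only how calls depend on the fit. With only the groups compared in the fit, the count was 0 in late HRas-v12, 3 in early MKK3bE, 1 in early MKK7D, 0 in late against early HRas-v12 and 0 for the early HRas-v12 sex difference. With the mean of all probe sets it was 2 in early MKK3bE and 3 in late against early HRas-v12. Without the arrays in doubt it was 1 in late HRas-v12, 5 in early and 4 in late MKK3bE, 1 in early and 2 in late MKK7D, 8 in late against early HRas-v12, 2 in late HRas-v12 against late MKK3bE, 0 for the early and 1 for the late HRas-v12 sex difference. For females only, within the model of all arrays, it was 0 in early HRas-v12 and in late MKK3bE. For males only it was 0 in late HRas-v12 and in late MKK3bE.

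The replicate number as a block gave 3 members in late against early HRas-v12, 0 for the early HRas-v12 sex difference, and Itgb1 at 0.56 (limma adjusted p = 0.055) in late HRas-v12. Of 23 pairs of arrays with the same number, 3 correlated above 0.1 in their deviations (-0.34 to 0.12), so the numbers were not taken as pairs. MKK7D arrays share no number with their controls.

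Leaving out 1 array at a time gave 7 to 8 members in early and 1 to 6 in late HRas-v12, 0 to 2 in early and 1 to 3 in late MKK3bE, 0 in MKK7D at both times, 2 to 8 in late against early HRas-v12, 0 to 1 in early HRas-v12 against early MKK3bE, 1 in late HRas-v12 against late MKK3bE and 0 to 6 for the early HRas-v12 sex difference. All other comparisons stayed at 0. These counts too stand without the share of all genes called in the same fits. Groups of 2 or 3 arrays limit all of these, and detection calls were not used, so a dim signal carries no statement on presence.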
